A study of Homo sapiens with 62 samples.

Results

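Tetraspanins are small proteins that span the membrane several times and gather partner proteins into membrane patches. The 9 members described here are CD82, CD81, CD37, CD53, CD63, CD9, CD151, TSPAN3 and TSPAN33, found by gene symbol among the 55040 gene rows of each deposited library, and each symbol had 1 row. CD82 was chosen by its deposited FPKM values, which differed between the sets of libraries described below, so that difference is given as a description with no test. The other 8 were taken with it as members of the family, and 8 of the 9 members, all but CD151, were among the 10506 rows with a mean of 1 FPKM or more that were tested.

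The cells were GM12878, a line of human B lymphocytes made to grow without limit by Epstein-Barr virus, and no group had a treatment or an altered genotype. Pools of 10 hand-picked cells were divided into 10 parts, and each part was amplified to cDNA with a SMARTer kit made for very small RNA inputs, made into Nextera libraries for Illumina sequencing, as the labels describe. In 10 libraries the titles number the splits from 1 to 10 (the numbered splits). In the other 10 the titles give library numbers 232, 233 and 246 to 253 (the unnumbered splits). Titles of 9 unnumbered splits, all but 247, are marked as superseded by a later record, and those of the numbered splits are not. The labels do not say that a set came from a single pool, and splits of 1 pool are technical repeats, so the spreads and p-values here measure differences between splits and not between cultures. Of the 62 samples of the series 42 were not analysed here.

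In B cells the family has divided roles. CD81 associates with the complement receptor CR2 and with IFITM1 in the B cell membrane and helps to organise signals of the B cell receptor. CD37 and CD53 are largely restricted to blood cells and organise integrins and signalling receptors there. CD63 sits in late endosomes and on the small vesicles that cells release. CD82, CD9 and CD151 are widely expressed and bind integrins and other adhesion proteins. TSPAN33 belongs to the subgroup that guides the sheddase ADAM10 and is known from activated B cells.

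The promoters of CD82 and CD53 are shown because these genes were the member that differed most between the sets and the member found in every library. RefSeq entries were matched by symbol for 5 of the 9 members. RefSeq lists 1 start for CD82 and 2 for CD53, of which the first on the plus strand is shown. The 250 bases before each start are given 5′ to 3′ on the plus strand of GRCh38.p14, chr11:44565413-44565662 for CD82 and chr1:110870960-110871209 for CD53, with GGGCGG in capitals where it occurs.
CD82: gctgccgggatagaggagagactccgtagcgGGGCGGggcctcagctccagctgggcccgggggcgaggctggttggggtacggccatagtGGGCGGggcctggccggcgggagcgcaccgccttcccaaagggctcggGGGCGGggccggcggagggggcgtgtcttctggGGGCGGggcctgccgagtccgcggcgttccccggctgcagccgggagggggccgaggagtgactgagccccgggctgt
CD53: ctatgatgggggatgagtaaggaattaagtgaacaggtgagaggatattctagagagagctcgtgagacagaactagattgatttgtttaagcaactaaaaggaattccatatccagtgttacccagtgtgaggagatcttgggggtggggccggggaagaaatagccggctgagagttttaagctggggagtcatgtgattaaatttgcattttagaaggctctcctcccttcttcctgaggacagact
The CD82 stretch was 77.2% G and C with 26 CpG and 4 matches to GGGCGG, searched on both strands. The CD53 stretch was 45.2% G and C with 3 CpG and no match. Over 35116 promoters of this length the median was 58% G and C, and 42.64% held GGGCGG. Neither stretch held TATAAA (10.72% of promoters), CCAAT (32.01%) or the kappa-B consensus (9.961%), each on either strand. Such matches describe the letters and do not show binding.

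The levels below are FPKM, fragments per kilobase of transcript and per megafragment (M) mapped, as the authors deposited them, so levels can be set beside each other between genes. A gene was counted as detected at 1 FPKM or more. Depth recovered from the deposited confidence bounds was 11.8 to 20.6 M fragments in the numbered splits. The unnumbered splits had 23.3 to 38.7 M in 8 libraries, while split 252 had 7.79 M and split 247 only 0.128 M. Rows at 1 FPKM or more numbered 3771 to 7671 per numbered split, lowest in split 9, and 2942 to 4792 per unnumbered split, lowest in split 253. Splits 9, 247 and 253 stood apart in earlier results of these data, and results are given without them where that matters. Stretches of consecutive laboratory numbers split the libraries further into run a, with splits 5 to 8 of the numbered set, run b, with the remaining 6 of that set, run c, with 232 and 233, and run d, with 246 to 253. The labels do not call these stretches batches. Each run lies within 1 set, so between the sets run and set cannot be told apart. Run a was compared with run b, and run c, with 2 libraries, was not tested against run d.

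The typical split held CD53, CD63, CD82 and CD37 at high levels in the numbered set, and CD53 with a varying company of CD63 and CD37 in the unnumbered set. Between 3 and 6 members were detected per numbered split (median 5), against 1 to 5 per unnumbered split (median 3). Without CD82, the other 8 members gave 2 to 5 per numbered split (median 4), against 1 to 5 per unnumbered split (median 3). Over all rows, 3771 to 7671 were detected per numbered split and 2942 to 4792 per unnumbered split. The counts of members are thus no result about the family. The FPKM of all 9 members summed to 623 to 1461 in the numbered splits (median 985), against 278 to 774 in the unnumbered splits (median 517). CD53 alone made up 11.1% to 59.7% of that sum in the numbered splits and 47.0% to 99.7% in the unnumbered splits. CD53 was the highest member in 5 numbered splits and in all 10 unnumbered splits, and CD63 was the highest in the other 5 numbered splits.

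CD82, a tetraspanin that binds integrins and is known as a suppressor of metastasis, was present throughout the numbered set and close to absent from the unnumbered set. Its level in the numbered splits ran from 10.5 FPKM in split 1 through a median of 191.6 to 436 in split 4, a mean of 191.2 ± 108 (SD, n = 10). The unnumbered libraries listed it at 0 in 5 cases (246, 247, 248, 251 and 252), with a median of 0.00531 and a highest value of 0.821 FPKM in split 233. Every numbered split lay above every unnumbered split, with no value between 0.821 and 10.5 FPKM. Both runs of the numbered set lay above it, with 174 ± 32.9 FPKM in run a (SD, n = 4) and 203 ± 142 in run b (SD, n = 6).

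Split 233 was the unnumbered library with the most evidence of CD82. Its 0.821 FPKM rested on an effective number of 59.3 fragments, the number that would give the width of the deposited bounds by counting alone. The other unnumbered values above 0 (0.0106 to 0.228 FPKM in splits 232, 249, 250 and 253) rested on at most 3.93. A level of 3 fragments corresponded to 0.0339 to 0.168 FPKM in the unnumbered libraries other than split 247, and to 10.3 FPKM in split 247. A level like that of numbered split 1 would therefore have been hard to see in split 247 but not in the other 9, and these limits cover counting error only. Splits 232 and 250, at 0.107 and 0.228 FPKM, also lay above their levels of 3 fragments, 0.0376 and 0.0406 FPKM. Fewer cells with the transcript and less transcript per cell cannot be told apart in such splits.

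The log2 difference of CD82, numbered minus unnumbered on the log2(FPKM + 1) scale, was 7.08 (SE 0.67), or 6.73 beyond the median of all tested rows, which was 0.35. It chose the gene and gets no p-value. CD82 was 1 of 7 rows of the 10506 (0.0666%) that were detected in all 10 numbered splits and in none of the unnumbered ones, and 1.65% of the rows had every numbered split above every unnumbered one. Both shares use the values that chose CD82, so they describe the rows and are no support for the gene. The difference was 6.94 with run b alone standing for the numbered set, and it ran from 6.64 to 7.07 under the other scalings and library choices tried. The pseudocount moved it further, to 9.88 with 0.1 and 4.03 with 10, where 5 of the 10 unnumbered values were listed at 0.

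**Figure D1:**
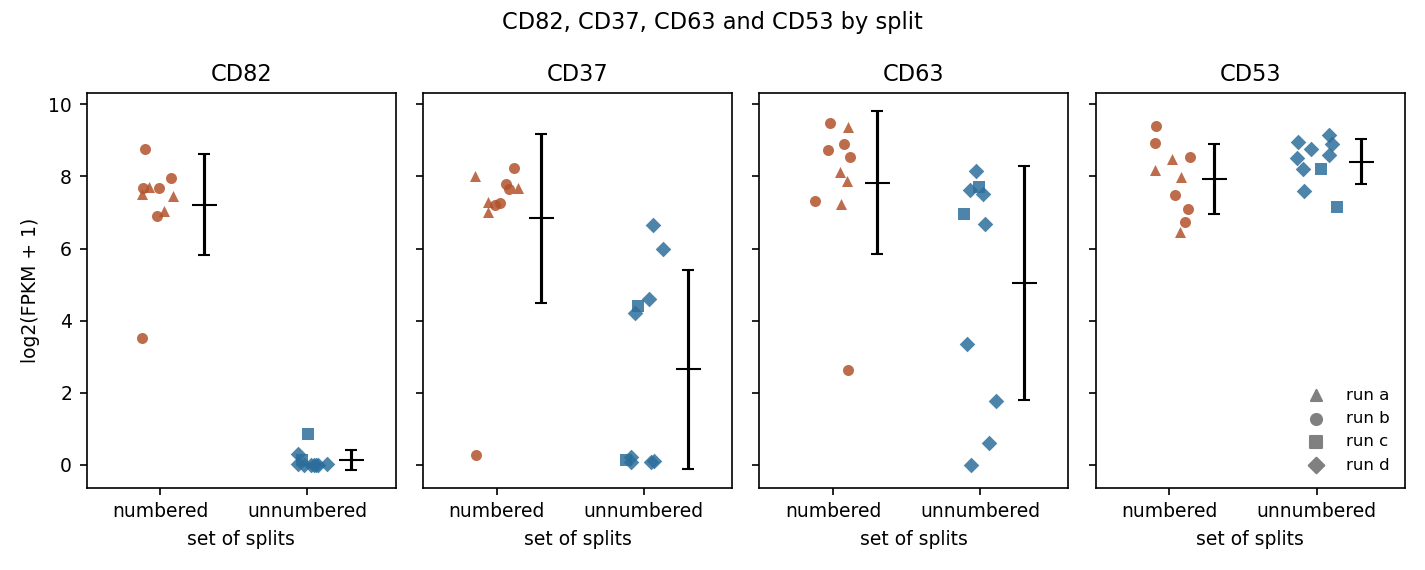
Levels of CD82, CD37, CD63 and CD53 as log2(FPKM + 1) in each split, numbered at the left and unnumbered at the right of each panel, with symbols for the runs and bars for the mean ± SD of the 10 splits. CD82 separates the sets completely, CD37 does so apart from numbered split 9, CD63 overlaps widely, and CD53 is at a like level in both.

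CD37, the blood-cell tetraspanin that links integrin and cytokine receptor signalling in lymphocytes, rose in the numbered splits. It ran from 0.201 FPKM in split 9 through a median of 177 to 302 in split 1, a mean of 177 ± 82.3 (SD, n = 10). Across the unnumbered set it ran from 0.0581 FPKM in split 253 through a median of 8.94 to 99.5 in split 252, a mean of 22.4 ± 33.5 (SD, n = 10). It was detected in 9 numbered splits, all but split 9, and in 5 unnumbered splits (232, 247, 249, 250 and 252). The other 9 numbered splits, at 129 FPKM or more, all lay above the highest unnumbered split, while split 9 lay below those 5.

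The unnumbered values of CD37 fell into a detected and an undetected part. Splits 232, 249 and 250 held 20.1, 23.3 and 17.7 FPKM, on 567 to 880 effective fragments. The 63.1 FPKM of split 247 rested on 6.40 effective fragments. The undetected splits held 0.168 FPKM or less, on at most 2.82 effective fragments, and split 9 of the numbered set, at 1.82, was like them. By depth and length, all 10 splits of each set still lay at or above the level of 3 fragments for CD37. Values below 1 FPKM thus do not show that the transcript was absent. Split 9 was also the numbered split with the fewest detected members and the least CD63.

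The log2 difference of CD37 was 4.19 (SE 1.10), with an adjusted p of 0.0211 in limma over all tested rows, and an adjusted p of 0.00507 in an exact rank-sum test. CD37 was the only 1 of the 7 tested members other than CD82 to pass, and 2 of the 7 had an unadjusted p below 0.05 in limma and in the rank-sum test. The share of all rows at that unadjusted threshold is not given for this contrast, so no reading rests on the 2. Of all tested rows 5.31% passed in limma, 3.93% higher in the numbered splits and 1.38% lower, while the rank-sum test called 9.07% of the rows, so 1 gene of 7 is no result about the family. The call was lost without run a (log2 difference 3.75, adjusted p = 0.206) and where run a entered the fit as a covariate (adjusted p = 0.128). It was also lost with rows of any level included (adjusted p = 0.0563), and it was kept in the other 8 of 11 alternatives. Without splits 9, 247 and 253 the difference was 5.02, with an adjusted p of 0.00113, and the range of the adjusted p over all 11 alternatives was 0.00113 to 0.206.

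CD53, the other tetraspanin largely restricted to blood cells, was the member found in every library. It ran from 86.2 FPKM in split 6 through a median of 271 to 669 in split 2 in the numbered splits, a mean of 293 ± 184.1 (SD, n = 10). The unnumbered range was from 143 in split 233 through a median of 375 to 562 in split 247, a mean of 365 ± 134 (SD, n = 10). The sets overlapped over most of their range. CD53 was detected in all 20 libraries, as were 7.77% of the tested rows, and no other member was. Its log2 difference of -0.48 (SE 0.40) did not pass (limma adjusted p = 0.585), and it was below 0 under all 11 alternatives (-0.97 to -0.38).

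CD63, the tetraspanin of late endosomes and released vesicles, reached the highest levels of the family in the numbered splits. It ran there from 5.16 FPKM in split 9 through a median of 325 to 707 in split 1. Among the unnumbered splits it was listed at 0 in split 247, held 0.522, 2.40 and 9.30 FPKM in splits 246, 248 and 253, and lay between 101 and 283 FPKM in the other 6, with a median of 113. The sets overlapped: those 6 unnumbered splits lay within the range of the numbered splits. The log2 difference was 2.78 (SE 1.09) and did not pass, with a limma adjusted p of 0.172 and a range of 0.0922 to 0.495 over the alternatives.

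CD81, a broadly expressed organiser of B cell receptor signalling, was detected in few splits of this B cell line. In the numbered splits it held 26.2 FPKM in split 1, 2.69 in split 2 and 7.96 in split 7, then 0.480 and 0.0396 in splits 3 and 9, and was listed at 0 in the other 5. Unnumbered split 247 held 100.3 FPKM, on 5.26 effective fragments, split 252 held 1.399, and the other 8 were listed at 0. The highest CD81 value thus stood in the library of least depth. The log2 difference was 0.25 (SE 0.82, limma adjusted p = 0.888), 0.90 without split 247, and it fell below 0 with a pseudocount of 10 and with the trend on transcript length removed.

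CD9, a tetraspanin of adhesion and cell fusion that marks some B cell subsets and plasma cells, appeared in 4 splits at more than a trace. Numbered splits 4, 2 and 3 held 102.6, 43.8 and 1.07 FPKM, and unnumbered split 250 held 82.5 FPKM, on 2535 effective fragments. It was listed at 0 in 5 numbered splits, all 4 of run a among them, and in 7 unnumbered splits, and no other unnumbered value exceeded 0.0302 FPKM. The log2 difference was 0.71 (SE 0.96, limma adjusted p = 0.705).

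TSPAN33, the member of the ADAM10-guiding subgroup, was detected at 1 FPKM or more in 1 split of each set. By depth and length it reached the level of 3 fragments in 4 numbered and 3 unnumbered splits. Numbered split 10 held 86.7 FPKM, on 2511 effective fragments, and the other 9 numbered splits held 0.243 or less. Unnumbered split 232 held 18.2 FPKM, splits 250 and 246 held 0.502 and 0.4497, and the rest lay close to 0. The log2 difference was 0.17 (SE 0.73, limma adjusted p = 0.913), and -0.27 with the length trend removed.

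TSPAN3, a widely expressed relative, was detected in numbered split 1 (7.54 FPKM) and in unnumbered splits 249, 252 and 233 (91.6, 15.9 and 11.01 FPKM). The files list it at 0 in 7 splits of the numbered set and 5 of the unnumbered set. The log2 difference was -1.06 (SE 0.79, limma adjusted p = 0.533). CD151, a partner of laminin-binding integrins, was listed at 0 in all 20 libraries. Its row overlaps that of POLR2L, an RNA polymerase subunit, which averaged 273 FPKM in the numbered and 124 FPKM in the unnumbered splits, and the sources used here do not say whether the counting used strand. An FPKM of exactly 0 in such files can be a failed estimate. No value of the 8 tested members was marked as failed, since rows with a failed estimate in any library were left out. Zeros are still given only as listed.

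**Figure D2:**
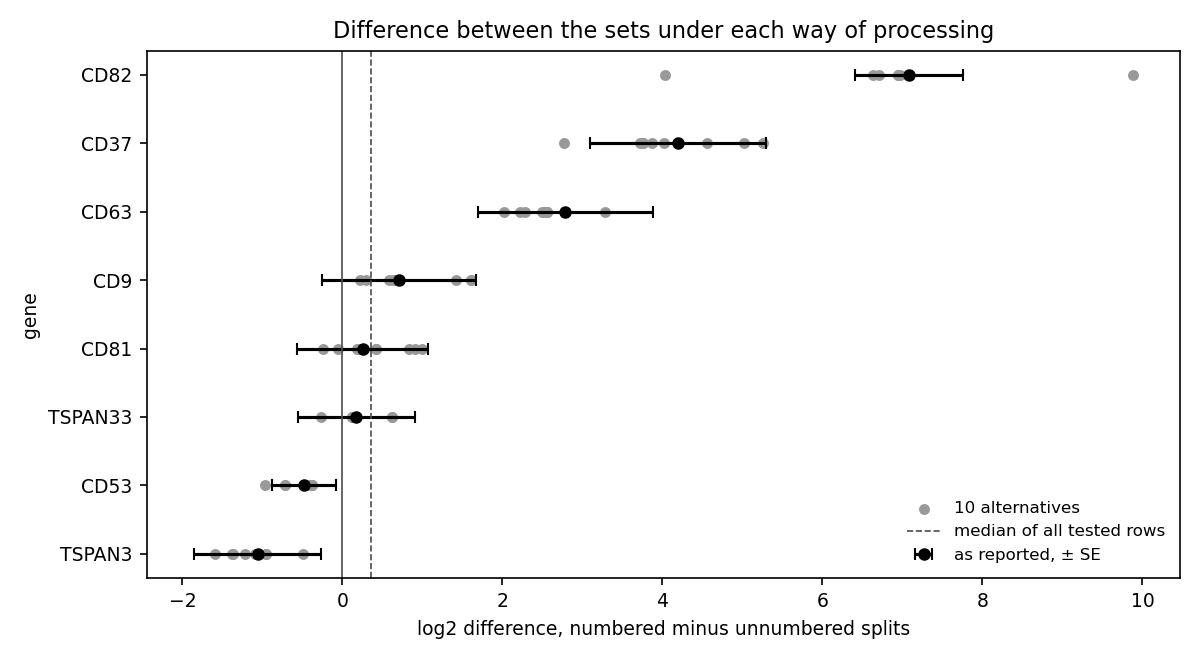
Log2 difference in log2(FPKM + 1), numbered minus unnumbered splits, for the 8 tested members (black, ± SE) with the values under 10 alternatives in grey. The dashed line is the median of all tested rows, 0.35, and CD82 lies furthest from it under every alternative. CD82 was chosen by this difference and the alternatives use the same libraries, so its place is no support for the gene.

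Within the numbered set the members were also compared between run a and run b, a contrast that had no part in choosing them. None of the 8 tested members passed in limma or in an exact rank-sum test, and 0 and 1 of the 8 had an unadjusted p below 0.05 in these tests. The smallest p that the rank-sum test allows for 4 against 6 splits is 0.00952, so after adjustment it had little room to call a gene. The background was nearly empty too, with 1 of 10506 rows called by limma (0.00952%). At an unadjusted p below 0.05 there were 562 rows in limma and 520 in the rank-sum test. The log2 difference of CD82, run a minus run b, was 0.35 (SE 0.89, limma adjusted p = 0.971). It was -0.36 without split 1, whose 10.5 FPKM was the lowest of run b. CD37 averaged 186.6 ± 57.2 FPKM in run a and 170 ± 100.5 in run b (SD, n = 4 and 6), a log2 difference of 1.10 (limma adjusted p = 0.875) that was -0.13 without split 9. CD9 had the widest gap, listed at 0 in all 4 splits of run a against 24.6 FPKM on average in run b, with a log2 difference of -2.25 (SE 1.49, limma adjusted p = 0.824) that was -1.36 without split 4.

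By mean FPKM the order in the numbered splits was CD63, CD53, CD82, CD37, CD9, TSPAN33, CD81, TSPAN3 and CD151. Of these neighbours CD37 and CD9, at 177 and 14.8 FPKM, were the only pair whose difference exceeded the larger SD, and CD37 was the higher in 10 of 10 splits. In the unnumbered splits the order was CD53, CD63, CD37, TSPAN3, CD81, CD9, TSPAN33, CD82 and CD151. There the only such pair was CD53 and CD63, at 365 and 111 FPKM, with CD53 higher in 10 of 10 splits. All other neighbours lay within the larger SD. The place of CD81 there rested on split 247, without which its mean was 0.155 FPKM, below those of CD9 (9.17) and TSPAN33 (2.13). CD82 thus stood at the third place by mean in the numbered set and at the eighth in the unnumbered set.

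The spread between splits was lower at higher levels. Among the abundant members, the coefficient of variation (CV, the SD over the mean) in the numbered splits was 0.566 for CD82, 0.465 for CD37, 0.628 for CD53 and 0.651 for CD63. Rows with a mean within a factor of 2 had median CVs of 0.691, 0.717, 0.566 and 0.523 beside these 4 genes, in that order. In the unnumbered splits CD53 had a CV of 0.367, and 15.1% of the rows of like level varied less. Measured by the SD of log2(FPKM + 1) instead, the spread in the numbered splits over the median of rows of like level was 1.08 for CD37, against 0.649 by CV, and 2.22 for CD63, against 1.24 by CV. Sparse members had the highest CVs, 3.14 for TSPAN33 in the numbered splits and 3.16 for CD9 in the unnumbered splits, which is about what 1 high split among 10 gives. By the SD of log2(FPKM + 1) these lay at 0.972 and 0.961 of the median of rows of like level.

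**Figure D3:**
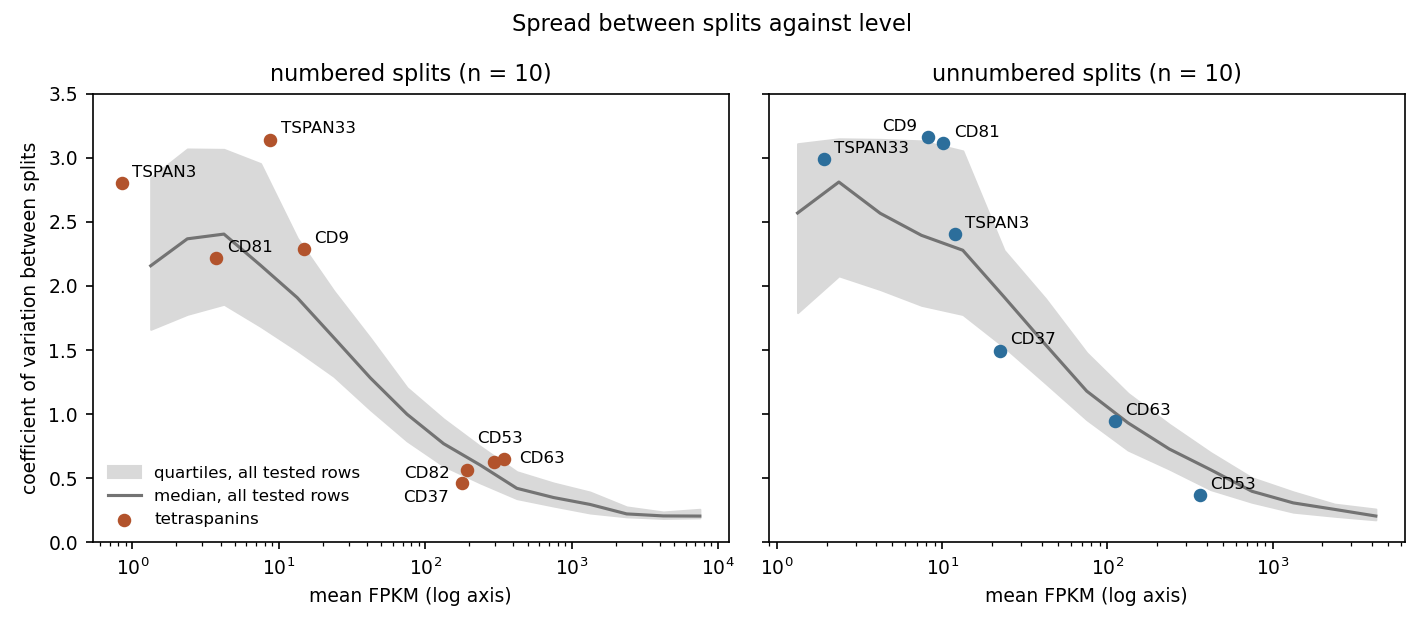
Coefficient of variation between the 10 splits of a set against mean FPKM (log axis) for the tetraspanins (points), with the median (line) and quartiles (grey) of all tested rows, numbered at the left and unnumbered at the right. In the numbered panel CD82, CD37, CD53 and CD63 have lower coefficients than the sparse members. CD82 and CD37 lie below the median of rows of like level there, and CD53 and CD63 above it. Members with a mean below 0.5 FPKM (CD151, and CD82 in the unnumbered splits) are not drawn.

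Members also differed in sequence composition. The longest coding transcript in GENCODE 29 was 45.6% G and C for CD53, the lowest of the family, and 58.98% for CD82, 62.4% for CD37, 62.7% for CD81 and 63.1% for CD151. The median of the tested rows was 46.6%, with quartiles of 41.5% and 53.5%. CD9 and TSPAN3, sparse in both sets, lay near CD53 at 47.8% and 48.0%. In the files' own coordinates CD82 lies at chr11:44585977-44641913, CD37 at chr19:49838428-49843859, CD53 at chr1:111415772-111442550 and CD63 at chr12:56119107-56123491, each as 1 row over the whole gene. No source used here names the build behind these coordinates.

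The 5 rows whose pattern over the 20 libraries was nearest to that of CD82, by the root mean square difference in log2(FPKM + 1) after centring, were CCL3L1 (1.11), CCL3L3 (1.14), SAMSN1 (1.41), CCL4 (1.53) and BATF (1.55), against a median of 3.99 over all tested rows. CCL3L1, CCL3L3 and CCL4 encode chemokines, and CCL3L1 and CCL3L3 are near-identical copies, so their reads may be split between them. CCL4 ran from 77.3 to 2003 FPKM in the numbered splits (median 580), against 0.198 or less in the unnumbered splits. SAMSN1, an adaptor that restrains B cell activation, was detected in 10 numbered and 2 unnumbered splits. BATF, a transcription factor of the AP-1 family, was detected in 9 numbered splits and 1 unnumbered split. These rows share the libraries and the step between the sets.

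The other 24 tetraspanin genes examined added little. They include 6 listed at 0 in all 20 libraries, and 5 were detected in at least 1 numbered split against 3 in at least 1 unnumbered split. Of the 3 tested none passed in limma, unadjusted p included, nor in the rank-sum test. Beside 5.31% and 9.07% of all tested rows called in these tests, that is no result about them. TSPAN31, a gene amplified with CDK4 in sarcomas, averaged 55.7 FPKM in the numbered and 15.8 FPKM in the unnumbered splits, detected in 7 and 3 splits (limma adjusted p = 0.331). TSPAN12 was carried by 1 numbered split at 120.5 FPKM (limma adjusted p = 0.605), and TSPAN14 reached 99.3 FPKM in 1 numbered split (limma adjusted p = 0.925).

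Among the membrane and immunoglobulin-superfamily partners, 1 of 2 tested genes of 4 rose and none fell, beside 3.93% and 1.38% of all tested rows. IFITM1 (Leu-13), an interferon-induced membrane protein found with CD81, averaged 2058 ± 357 FPKM in the numbered splits and 423 ± 190 in the unnumbered splits (SD, n = 10 each), a log2 difference of 2.47 (limma adjusted p = 3.34e-06). The ranges, 1605 to 2511 against 63.6 to 767, did not overlap. CR2 averaged 32.2 and 15.4 FPKM in the numbered and unnumbered splits (log2 difference 1.22, limma adjusted p = 0.605).

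MHC class II molecules, which gather in tetraspanin patches, gave 3 genes higher of 5 tested and none lower, beside 3.93% and 1.38% of all tested rows. Their median log2 difference was 0.81, beside 0.35 over all tested rows. HLA-DRA averaged 4292 ± 684 FPKM in the numbered and 2437 ± 340 in the unnumbered splits (log2 difference 0.81, limma adjusted p = 1.61e-05). CD74, the invariant chain, averaged 5222 and 2328 FPKM in the numbered and unnumbered splits (log2 difference 1.20, limma adjusted p = 2.16e-05). HLA-DRB1 averaged 294 and 112 FPKM in the same order of sets (log2 difference 1.401, limma adjusted p = 0.0224). With the length trend removed HLA-DRA and HLA-DRB1 no longer passed (limma adjusted p = 0.348 and 0.208), and HLA-DRB1 was also lost with size factors (log2 difference 1.17, limma adjusted p = 0.0631) and with run a as a covariate (1.28, limma adjusted p = 0.120). The chains of the peptide loader, HLA-DMA and HLA-DMB, had log2 differences of -1.45 and -2.54 (limma adjusted p = 0.347 and 0.355), and that of HLA-DMA was -0.53 without splits 9, 247 and 253.

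The lists of integrins, of the ADAM10 axis and of endosome and exosome genes had none called in either direction of 5, 2 and 9 tested. The same held at an unadjusted p below 0.05 in limma and in the adjusted rank-sum test. Of all tested rows 5.31% were called in limma and 9.07% in the rank-sum test. With so few genes tested, the lack of a call is no result about these lists. Their median log2 differences were -1.41, -0.17 and 0.81, beside 0.35 over all tested rows. The integrin chain ITGB7 averaged 34.9 FPKM in the numbered and 96.5 in the unnumbered splits (limma adjusted p = 0.478), and ITGA4, its partner, 4.56 and 41.7 FPKM (limma adjusted p = 0.367). ITGAL, the alpha chain of LFA-1, averaged 6.18 FPKM in the numbered and 32.9 in the unnumbered splits (limma adjusted p = 0.524), and ITGB1, the beta chain of many matrix receptors, 0.0482 and 11.1 FPKM (limma adjusted p = 0.609). ITGB1 was detected in 0 numbered splits and 1 unnumbered split, at 111 FPKM, so its unnumbered mean rests on that split. ADAM10 averaged 33.3 and 44.2 FPKM (limma adjusted p = 0.492), and FCER2, the low-affinity IgE receptor that ADAM10 sheds, 98.1 and 53.7 FPKM (limma adjusted p = 0.556). TSG101 and RAB7A, which sort endosomal cargo, averaged 103 and 57.6 FPKM in the numbered splits against 51.3 and 44.6 in the unnumbered splits (limma adjusted p = 0.620 and 0.667). HGS and VPS4B, which act early and late in forming vesicles inside endosomes, averaged 0.0558 and 10.2 FPKM in the numbered splits against 10.5 and 3.32 in the unnumbered splits (limma adjusted p = 0.470 and 0.523). HGS was detected in 0 numbered and 2 unnumbered splits. Its log2 difference was -1.11, and -0.55 without split 247.

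All 6 B cell markers reached 1 FPKM in at least 1 numbered and at least 1 unnumbered split. So did CD2, CSF1R, CDH1 and COL1A1 of the other lists, CSF1R in 10 numbered and 8 unnumbered splits. CD79A was detected in 10 numbered and 4 unnumbered splits, CD79B in 8 and 3, and CD22 in 7 and 4. BLK was detected in 4 and 2, and PAX5 in 5 and 6. MS4A1 (CD20) was detected in all 20 libraries, averaging 716 FPKM in the numbered and 258 in the unnumbered splits (limma adjusted p = 0.00401). CD79A, a signalling chain of the B cell receptor, averaged 112 and 15.9 FPKM (limma adjusted p = 0.00274). The summed B cell markers ran from 590 to 1249 FPKM in the numbered and from 107 to 652 in the unnumbered splits, and the ranges overlapped. Of the 6 markers 2 were called higher and none lower, beside 3.93% and 1.38% of all tested rows. CD79B averaged 77.2 and 26.4 FPKM in the numbered and unnumbered splits, and BLK 7.32 and 1.76 (limma adjusted p = 0.278 and 0.705). CD22 averaged 17.8 and 21.99 FPKM, and PAX5 2.13 and 2.30 (limma adjusted p = 0.818 and 0.970). Of the T cell markers, 2 of 5 reached 1 FPKM in a numbered split and 1 of 5 in an unnumbered split, with sums of 0 to 53.4 against 0 to 5.61 FPKM, from CD2 and CD3E, and CD3D listed at 0 in all 20. The myeloid markers summed to 1.46 to 53.8 FPKM in the numbered and 0.902 to 1.65 in the unnumbered splits, mostly CSF1R, with CD14 and S100A8 listed at 0. The platelet and fibroblast markers summed to at most 1.98 and 1.19 FPKM in the numbered and 0 and 2.61 in the unnumbered splits, with PPBP, PF4, COL1A2 and LUM listed at 0. The epithelial markers reached 138.6 FPKM in the numbered and 77.0 in the unnumbered splits, nearly all CDH1, with KRT19 and KRT5 listed at 0. None of these non-B lists had a call in limma, with 2 T cell, 1 myeloid and 1 epithelial marker tested, beside 5.31% of all tested rows. CD2 had an unadjusted p below 0.05 and an adjusted p of 0.107, and CSF1R passed in the rank-sum test. Their part in the results for CD82 and CD37, and that of depth, was not tested.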

How the data were processed

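The 20 deposited libraries hold FPKM per gene with confidence bounds, which the authors made, per the submitters' processing notes, with Cufflinks 2.0.2 from TopHat 1.4.1 alignments. FPKM is already scaled to length and depth, so no count test was used. From the 55040 deposited rows, those with too little data in every library (5797) or a failed estimate in any (128) were left out, and of the remaining 49115 the 10506 with a mean of 1 FPKM or more were tested. Differences, numbered minus unnumbered splits and run a minus run b, were fitted with limma 3.58.1 (trended variance, R 4.3.3) on log2(FPKM + 1), which understates changes of low genes, with Benjamini-Hochberg adjustment over all tested rows and a threshold of 0.05. The procedure was tested on simulated data. Python 3.11.15, numpy 2.4.6, scipy 1.17.1 and pandas 2.3.3 were used for the rest. Exact rank-sum tests, pseudocounts of 0.1 and 10, no level filter, size factors, rescaling to a sum of 1000000 (TPM), left-out libraries and removal of a length trend were alternatives. Depth was read from the bounds of 9 mitochondrial genes, and an effective fragment number, 4 over the square of the relative half-width, from those of each gene. The effective number also falls where fragments are shared between isoforms, and it can exceed what depth and length give. TSPAN33 in unnumbered split 250 had 385 at 0.502 FPKM, where 3 fragments give 0.0499 FPKM. The effective number is therefore no direct count of fragments. No pair of libraries held identical values.

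Members, lists, runs and left-out libraries were chosen with earlier results of these data known. Besides members and marker lists, the genes named were, from each list, the 2 tested genes of highest mean and up to 2 more of smallest p, and the 5 rows nearest to CD82. Markers stand by their lists, and POLR2L was named after its values were seen. One gene of the partner and marker lists is not reported here, and the lists were summarised without it.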

Additional observations from a re-analysis of the deposited data

Results flagged for a closer look

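Single splits stood far above the other 9 of their set in 8 of the 15 groups of 10 splits with a member to check. The rule flags about 1 in 20 by chance for normally distributed values. All 8 came from the 4 sparse members. FPKM of sparse rows is not normally distributed: among rows with a mean within a factor of 2 of these members, 50.4% to 75.3% had a split apart by the same rule, so the flags are common at such levels. CD81 reached 26.2 FPKM in numbered split 1, where the next numbered split held 7.96, and 100.3 FPKM in unnumbered split 247, where the next held 1.399. CD9 reached 102.6 FPKM in numbered split 4, with 43.8 next, and 82.5 FPKM in unnumbered split 250, with 0.0302 next. TSPAN3 reached 7.54 FPKM in numbered split 1, with 0.755 next, and 91.6 FPKM in unnumbered split 249, with 15.9 next. TSPAN33 reached 86.7 FPKM in numbered split 10, with 0.243 next, and 18.2 FPKM in unnumbered split 232, with 0.502 next. Of the 8 values, only that of CD81 in split 247 came from the library with 0.128 M fragments.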

How the results depend on the processing

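Of the values of the 8 tested members between the sets, 79 kept direction and side of the threshold, 3 lost the call, 3 changed sign and 2 moved. The difference of CD82 was 9.88 with a pseudocount of 0.1 and 4.03 with 10, since the unnumbered levels lie near 0. CD37 no longer passed with rows of any level (4.19), without run a (3.75) or with run a as a covariate (3.75). CD81 was -0.053 with a pseudocount of 10 and -0.25 with the length trend removed, and TSPAN33 was -0.27 with the latter; neither passed in any fit. Rows higher and lower in the numbered splits numbered 413 and 145, against 238 and 248 with the length trend removed and 345 and 217 as TPM, and size factors gave 316 higher of 507. The exact rank-sum test called 953, of them 706 higher and 247 lower. The 4 calls among partners became 2 with the length trend removed. TSPAN14 was 0.13 with a pseudocount of 10 and 0.30 both without run a and with it as a covariate, and ITGB1 was 0.068 without splits 9, 247 and 253. The count between run a and run b, 1, was 5 with no level filter, 0 in the rank-sum test and 0 to 5 with a numbered split left out. In that contrast TSPAN3 was 0.050 with a pseudocount of 0.1. With a split left out, CD82 ran from -0.36 to 0.69, CD81 from -1.21 to 0.29, CD37 from -0.13 to 1.47, CD53 from -0.51 to 0.19, CD63 from -0.44 to 0.93, TSPAN3 from -0.45 to 0.25, CD9 from -2.70 to -1.36 and TSPAN33 from -1.34 to -0.05. The cause of these shifts was not tested. Of the 21 values of spread under other measures 8 moved, those of CD37 and CD63 in the numbered splits among them. No paired analysis was possible because the 2 sets share no replicate numbers. Summing rows per symbol was not run, since each symbol had 1 row. Depth limits split 247 most, where 3 fragments on CD82 already give 10.3 FPKM.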
